A study of Mus musculus with 12 samples.

Results

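The circadian clock genes were followed in cultured mouse liver cells exposed to riociguat, a stimulator of soluble guanylate cyclase, the enzyme that makes cGMP. The members were the 10 genes Arntl (also named Bmal1), Clock, Per1, Per2, Per3, Cry1, Cry2, Nr1d1, Nr1d2 and Dbp, chosen by name and matched by Ensembl identifier, out of 53452 genes in the deposited table. All 10 passed the filter on low counts. The cells are labelled HSCs of wild-type mouse liver, read here as hepatic stellate cells, and the labels give no animal age, sex, pooling or dose. All 4 groups were kept for 12 h after isolation before a medium change, and by the labels' times all were collected 24 h after that change. The groups were DMSO, the solvent, for the last 12 h, and riociguat for the last 6 h, 12 h or 24 h, with 3 libraries each. In the 24 h group the compound went in at the medium change itself. Nothing in the labels ties replicates to separate animals, so the p-values cover only differences among these libraries, which could be purely technical.

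In the mammalian clock, the proteins CLOCK and BMAL1 pair on E-box DNA and switch on the Period, Cryptochrome and REV-ERB genes and the output gene Dbp. PER and CRY proteins then block that pair. The REV-ERB proteins, encoded by Nr1d1 and Nr1d2, are heme-binding nuclear receptors that repress Arntl in competition with the ROR receptors. A change of medium can set the clocks of cultured cells to a common phase. Here the time since that change was the same in all groups, so the comparisons ask whether clock transcripts at 1 fixed time differed with riociguat and with how long it had been present.

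The clock genes varied little in absolute size, with the highest CPM of a member at most 1.49 times its lowest. Against DMSO, 2 of the 30 tests on clock genes passed. Nr1d1 was lower after 24 h of riociguat, and Nr1d2 was higher after 6 h. No member passed in the only comparison with matched exposure, riociguat 12 h against DMSO 12 h. Between exposure times Cry1 was higher and Nr1d1 lower at 24 h than at 6 h. No 95% interval of the 60 member tests reached a change of 1 on the log2 scale.

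Libraries held between 12953096 and 27358893 counts, and 16036 genes were tested. The lowest member count in any library was 115, for Dbp. Levels are CPM, counts scaled to library size with TMM factors, and an adjusted p is from edgeR with Benjamini-Hochberg correction over all tested genes, called when under 0.05. All 8 stellate markers, among them Des, Lrat, Reln and Pdgfrb, were detected and together summed to 1905 ± 27.9 CPM in DMSO (SD, n = 3). Reln alone had a mean of 1366.5 CPM there, while Lrat, Colec11 and Ngfr were at 4.81, 4.95 and 7.10 CPM. Such sums depend on the genes listed and do not give shares of cells. Genes typical of further liver cell types were also detected. In the DMSO libraries 6 hepatocyte genes summed to 1086 to 1140 CPM, 7 endothelial genes to 868 to 947 CPM, 5 cholangiocyte genes to 533 to 574 CPM, 7 portal fibroblast and mesothelial genes to 404 to 480.0 CPM and 7 macrophage genes to 126 to 133 CPM. In such bulk samples, fewer cells of a type and less RNA per cell cannot be told apart.

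The sequences just before the start sites of the members that passed a test show which clock motifs stand there. RefSeq promoter windows (250 bases before to 50 after a start site, build GRCm38.p6) were matched for 9 of the 10 members, in 13 windows. The motifs searched on both strands were the E-box CACGTG, the E-prime box CACGTT, the D-box TTATGTAA or TTACGTAA (bound by DBP), the ROR element core TAGGTCA or TGGGTCA (bound by REV-ERB and ROR proteins) and the cAMP response element TGACGTCA. Capitals mark the matches in the windows below, which are written 5′ to 3′ on the strand of the gene (all on the minus strand).
Nr1d1 (chr11:98775328-98775627, minus strand): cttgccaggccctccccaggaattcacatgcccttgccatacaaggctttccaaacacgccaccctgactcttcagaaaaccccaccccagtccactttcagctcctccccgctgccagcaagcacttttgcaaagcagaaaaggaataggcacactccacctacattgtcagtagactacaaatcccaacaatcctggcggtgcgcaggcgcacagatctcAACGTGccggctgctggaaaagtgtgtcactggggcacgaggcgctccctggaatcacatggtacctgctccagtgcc
Nr1d2 (chr14:18239057-18239356, minus strand): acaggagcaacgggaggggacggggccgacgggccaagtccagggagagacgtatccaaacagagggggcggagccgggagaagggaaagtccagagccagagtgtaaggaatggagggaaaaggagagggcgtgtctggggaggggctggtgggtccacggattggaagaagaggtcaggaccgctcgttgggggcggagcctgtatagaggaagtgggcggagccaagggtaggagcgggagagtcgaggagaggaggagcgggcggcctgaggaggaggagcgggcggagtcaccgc
Cry1 (chr10:85185005-85185304, minus strand): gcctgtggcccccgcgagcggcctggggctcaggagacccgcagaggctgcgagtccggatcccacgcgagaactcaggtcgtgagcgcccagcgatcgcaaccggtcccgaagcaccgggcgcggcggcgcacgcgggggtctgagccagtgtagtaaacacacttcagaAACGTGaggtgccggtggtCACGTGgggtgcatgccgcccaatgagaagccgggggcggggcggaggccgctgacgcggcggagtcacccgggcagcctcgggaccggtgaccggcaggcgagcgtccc
The Nr1d1 window held an E-prime box that begins at position -28 from the start site. The Cry1 window held an E-prime box at -79 and an E-box at -60. The Nr1d2 window held none of these motifs, which says only that these letters are not in it. Elsewhere, windows of Per1 (E-box at -166), Cry2 (E-prime box at -166), Per3 (D-boxes at -205 and -158) and Arntl (ROR element core at 31, in 1 of its windows) held a match, and none held the cAMP response element. No match overlapped another. Among 32851 windows of the mouse genome, 7.15% held the E-box, 4.68% the E-prime box, 1.06% a D-box, 6.45% the ROR element core and 1.79% the cAMP response element.

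The levels of the members differed far more between genes than between groups. Per kilobase of annotated exon, the DMSO libraries had 32.3 ± 1.07 CPM for Nr1d1 (SD, n = 3), above 90.5% of the tested genes, and 13.7 ± 0.609 CPM per kilobase for Nr1d2. Clock followed with 8.51 ± 0.547 CPM per kilobase. Cry1 (6.75 ± 0.906) and Per1 (5.73 ± 0.488) came next, and their libraries overlapped. Cry2 was at 4.80 ± 0.253 CPM per kilobase. Arntl (3.02 ± 0.377), Dbp (2.97 ± 0.214) and Per2 (2.72 ± 0.131) followed, each overlapping the next. Per3 was lowest, at 1.38 ± 0.137 CPM per kilobase, above 31.4% of the tested genes. The other neighbours in this order did not overlap. Across all 12 libraries the highest CPM of a member was between 1.19 times (Cry2) and 1.49 times (Cry1) its lowest.

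**Figure D1:**
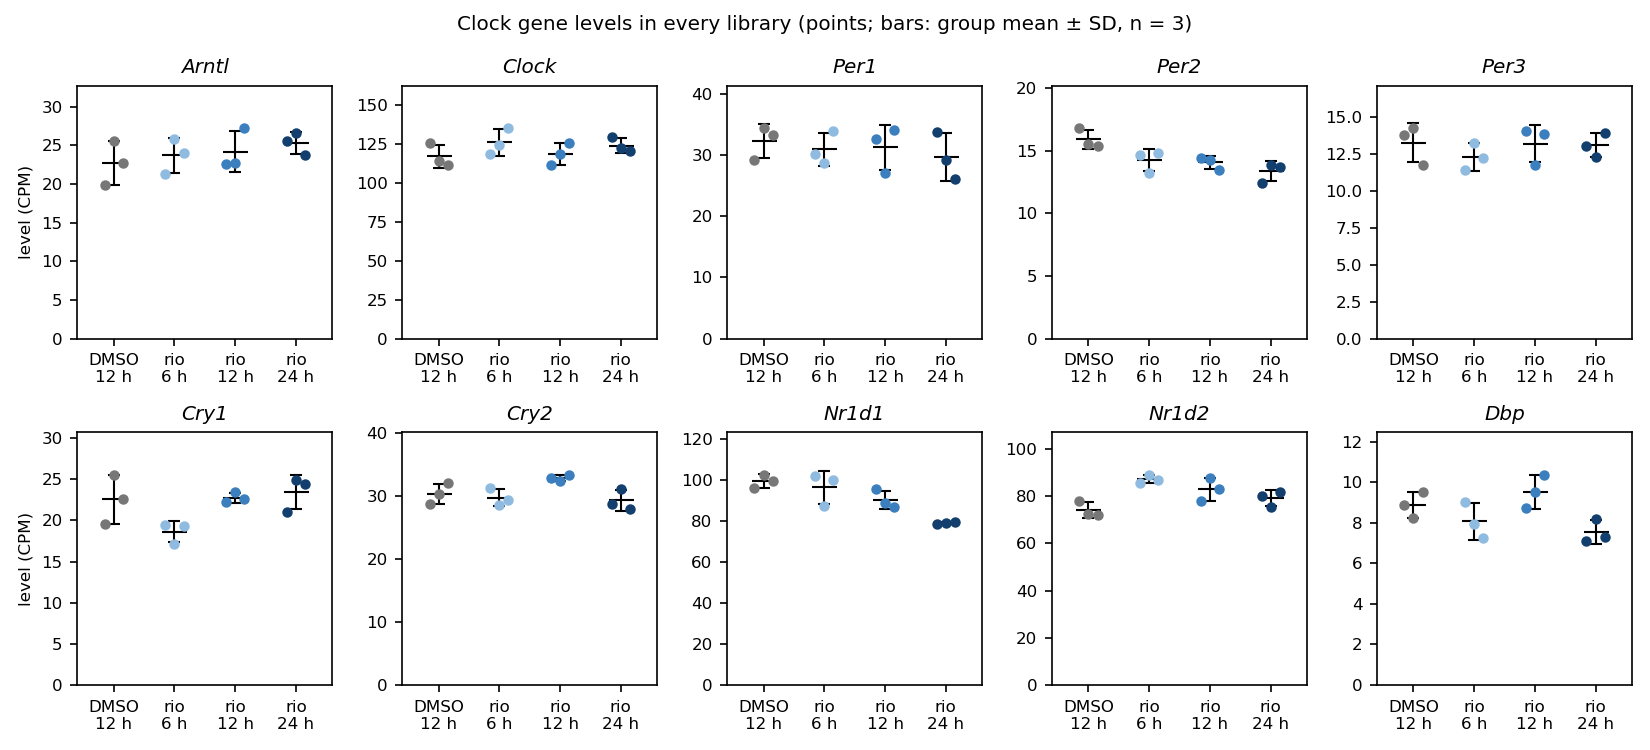
Level (CPM, y axis from 0) of each of the 10 clock genes in the 12 libraries, by group on the x axis (rio, riociguat). Points are libraries and bars the group mean ± SD (n = 3). The 3 Nr1d1 values at 24 h lie between 78.6 and 79.6 CPM, below the other 9 libraries. For Arntl, Clock, Per1 and Per3 every riociguat group overlaps DMSO. The panels of Nr1d2, Per2, Cry1, Cry2 and Dbp each have a riociguat group that does not overlap DMSO.

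Of the REV-ERB genes, Nr1d1 (ENSMUSG00000020889, chromosome 11, 98767932 to 98775333, GRCm38) measured 95.9, 103 and 99.4 CPM in DMSO. The libraries were at 102, 87.2 and 100.1 CPM after 6 h, at 95.3, 88.7 and 86.6 CPM after 12 h and at 78.6, 78.9 and 79.6 CPM after 24 h of riociguat. All 24 h libraries were below every other library. The 12 h libraries were also all below those of DMSO, by a narrow margin (95.3 against 95.9 CPM), while the 6 h libraries overlapped those of DMSO. The log2 fold change at 24 h was -0.33 ± 0.06 (SE; 95% interval -0.45 to -0.21), or 0.796 times the DMSO level (edgeR, adjusted p = 0.000965). Without any single library of the compared groups, that adjusted p was at most 0.00865. At 6 h and 12 h the log2 fold changes were -0.05 ± 0.06 and -0.14 ± 0.06 (SE), which did not pass (adjusted p = 0.705 and 0.222).

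Nr1d1 was also lower at 24 h than at 6 h of riociguat, a comparison without control libraries, by a log2 fold change of -0.28 ± 0.06 (SE, adjusted p = 0.00284). Against 12 h the difference at 24 h was -0.19 ± 0.06, which did not pass (adjusted p = 0.105), although the libraries did not overlap. Marker sums moved with the 24 h group too. The 6 hepatocyte markers summed to 516 to 723 CPM, against 1086 to 1140 CPM in DMSO, and the 7 endothelial markers to 700.1 to 743 CPM, against 868 to 947 CPM. Among the endothelial markers the means of Cdh5, Pecam1, Stab1 and Kdr were lower. Clec4g was higher, at 13.1 to 15.1 CPM against 9.97 to 11.2 CPM in DMSO. Stab2 had a mean of 12.4 against 10.5 CPM and Lyve1 of 2.73 against 2.76 CPM. The cholangiocyte sum was higher at 24 h through Spp1 alone, which had a mean of 732 CPM against 266 CPM in DMSO. The means of the other 4 cholangiocyte markers were lower at 24 h than in DMSO, with 77.4 against 85.1 CPM for Krt7, 43.8 against 48.8 CPM for Epcam and 22.5 against 26.5 CPM for Sox9. The fourth, Krt19, lay at 101 to 125 CPM at 24 h and 121 to 125 CPM in DMSO. The stellate sum was 2109 to 2195 CPM at 24 h against 1886 to 1937 CPM in DMSO. Within it the means of Reln (1665 against 1366.5 CPM), Hhip (101 against 57.6 CPM), Lrat and Hand2 were higher. Those of Des (132 against 190 CPM), Pdgfrb (186 against 238 CPM), Colec11 and Ngfr were lower. The macrophage sum was 134 to 156 CPM against 126 to 133 CPM, with Lyz2 higher (90.5 against 68.7 CPM) and Csf1r lower (16.8 against 19.8 CPM). The part of these shifts in the Nr1d1 result was not tested. Nr1d1 shares 263 of its 3077 exon bases with Thra, a thyroid hormone receptor gene on the opposite strand, and the sources do not say whether counting used strand. Thra lay between 34.6 and 40.1 CPM in DMSO and between 34.5 and 41.5 CPM at 24 h, so its groups overlapped.

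Nr1d2 (ENSMUSG00000021775, chromosome 14, 18204054 to 18239127), the paralog of Nr1d1, was at 77.9, 72.5 and 71.9 CPM in DMSO. After 6 h of riociguat it was at 85.5, 89.1 and 86.9 CPM, with all 3 libraries above those of DMSO. The log2 fold change was 0.24 ± 0.06 (SE; 95% interval 0.12 to 0.35; edgeR, adjusted p = 0.0111), or 1.18 times the DMSO level. Leaving out 1 library ended this call for DMSO replicate 2 (adjusted p = 0.056), DMSO replicate 3 (0.0525) and riociguat 6 h replicate 2 (0.0508). At 12 h the libraries were at 78.1, 87.6 and 82.9 CPM, again all above DMSO, and the log2 fold change of 0.16 ± 0.05 did not pass (adjusted p = 0.112). At 24 h they were at 80.2, 75.4 and 81.7 CPM, overlapping DMSO, with 0.09 ± 0.06 (adjusted p = 0.299). The difference between 24 h and 6 h did not pass either (-0.14 ± 0.06, adjusted p = 0.103), so a change with exposure time was not shown for Nr1d2. Marker sums differed from DMSO at 6 h too, without overlap for all lists but the cholangiocyte one. Stellate markers summed to 2064 to 2118 CPM, against 1886 to 1937 CPM in DMSO. Within them the means of Reln (1552 against 1366.5 CPM), Hhip (86.6 against 57.6 CPM) and Pdgfrb (242 against 238 CPM) were higher. Those of Des (171 against 190 CPM), Hand2 (32.4 against 35.9 CPM), Lrat, Colec11 and Ngfr were lower. Endothelial markers summed to 1070 to 1147 CPM, against 868 to 947 CPM in DMSO. Portal fibroblast and mesothelial markers summed to 284 to 317 CPM against 404 to 480.0 CPM, hepatocyte markers to 921 to 1055 CPM against 1086 to 1140 CPM and macrophage markers to 109 to 115 CPM against 126 to 133 CPM. The portal fibroblast and mesothelial sum followed Fbln2, at a mean of 252 CPM against 384 CPM in DMSO. Eln was higher (4.53 against 3.30 CPM) and the other genes of that list had lower means. Of the macrophage markers, Lyz2 was lower (55.0 against 68.7 CPM). Cd68 (31.9 against 31.4 CPM) and Csf1r (20.4 against 19.8 CPM) were not, and the rest had lower means. The part of these shifts in the Nr1d2 result was not tested.

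The ratio of the paralogs within a library needs no scaling between libraries. The Nr1d1 to Nr1d2 ratio of counts was 1.23, 1.41 and 1.38 in DMSO. It lay between 0.978 and 1.19 after 6 h, 1.22, 1.01 and 1.04 after 12 h and 0.980, 1.05 and 0.974 after 24 h of riociguat. All 9 riociguat libraries were below the 3 DMSO libraries, by a narrow margin between DMSO replicate 1 and riociguat 12 h replicate 1. This ratio was formed after the values were seen and carries no test.

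**Figure D2:**
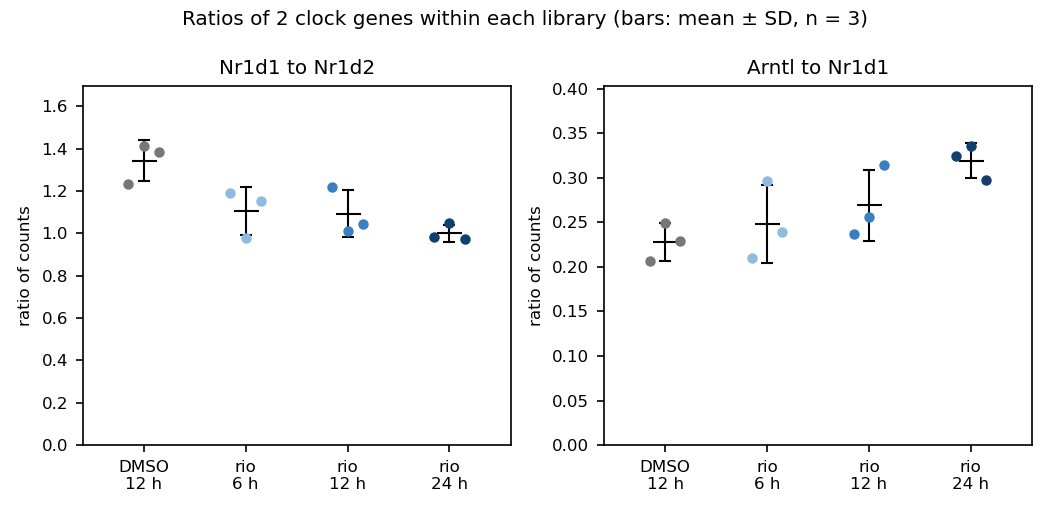
Ratio of counts of Nr1d1 to Nr1d2 (left) and of Arntl to Nr1d1 (right) on y axes from 0, by group on the x axis. Points are libraries and bars the mean ± SD (n = 3). Nr1d1 to Nr1d2 lies at 1.23 to 1.41 in DMSO and 0.974 to 1.05 at 24 h, and Arntl to Nr1d1 at 0.207 to 0.249 in DMSO and 0.298 to 0.336 at 24 h.

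The positive limb did not pass in any comparison. Arntl, which encodes BMAL1 and is a target that REV-ERB proteins repress, was at 19.9, 25.5 and 22.8 CPM in DMSO and at 25.5, 26.5 and 23.7 CPM after 24 h of riociguat. These groups overlapped. Its log2 fold changes against DMSO were 0.07 ± 0.10 at 6 h, 0.09 ± 0.10 at 12 h and 0.15 ± 0.10 at 24 h (SE, adjusted p = 0.768, 0.749 and 0.39). The 95% interval at 24 h ran from -0.07 to 0.37, so a rise within it cannot be told from no change. The Arntl to Nr1d1 ratio of counts was 0.207 to 0.249 in DMSO and 0.298 to 0.336 at 24 h, without overlap. Its denominator is the Nr1d1 level that was lower at 24 h, it was formed after the values were seen, and it carries no test. Clock, the partner of BMAL1, ranged from 111 to 135 CPM over all libraries. Its log2 fold changes were 0.11 ± 0.06, 0.02 ± 0.06 and 0.08 ± 0.06 at 6, 12 and 24 h, all with overlapping libraries.

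The Period genes encode the inhibitory partners of the Cryptochromes, and none passed. Per1, an acutely inducible gene with cAMP response elements known in its regulatory DNA, was at 29.2, 34.4 and 33.3 CPM in DMSO, 30.2, 28.7 and 34.0 CPM at 6 h, 32.6, 27.2 and 34.2 CPM at 12 h and 33.8, 29.1 and 26.1 CPM at 24 h. The groups overlapped throughout, and the log2 fold changes against DMSO lay between -0.12 (24 h) and -0.05 (12 h), each ± 0.11 (SE). Per2 was at 16.8, 15.5 and 15.4 CPM in DMSO. Its riociguat libraries were at 14.6, 13.2 and 14.8 CPM after 6 h, at 14.4, 14.3 and 13.5 CPM after 12 h and at 12.4, 13.9 and 13.7 CPM after 24 h. All 9 were below all DMSO libraries, but the log2 fold changes of -0.16 ± 0.09, -0.18 ± 0.09 and -0.26 ± 0.09 (SE) did not pass (edgeR, adjusted p = 0.294, 0.325 and 0.0666). Per3 ranged from 11.4 to 14.2 CPM over all libraries, with log2 fold changes of -0.11 ± 0.11, -0.01 ± 0.11 and -0.02 ± 0.11 at 6, 12 and 24 h.

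Of the Cryptochrome genes, whose proteins repress CLOCK and BMAL1, Cry1 (ENSMUSG00000020038, chromosome 10, 85131700 to 85185064) was lowest after 6 h of riociguat. It was at 19.5, 25.6 and 22.6 CPM in DMSO and at 19.4, 17.2 and 19.3 CPM at 6 h. The 12 h libraries were at 22.2, 23.4 and 22.6 CPM and the 24 h libraries at 21.0, 24.9 and 24.4 CPM, all above those of 6 h. Between 24 h and 6 h the log2 fold change was 0.33 ± 0.10 (SE; 95% interval 0.12 to 0.54; edgeR, adjusted p = 0.0319). It no longer passed when riociguat 6 h replicate 2 (adjusted p = 0.132) or 3 (0.0591), or riociguat 24 h replicate 2 or 3 (at most 0.101), was left out. From 6 h to 24 h the mean marker sums went from 1110 to 720.1 CPM for endothelial and from 970.1 to 625 CPM for hepatocyte genes. They went from 301 to 431 CPM for portal fibroblast and mesothelial genes and from 523 to 987 CPM for cholangiocyte genes. Macrophage genes went from 113 to 147 CPM and stellate genes from 2096 to 2153 CPM. The cholangiocyte rise followed Spp1 (275 to 732 CPM), while Krt19 had a lower mean. The portal one followed Fbln2 (252 to 376 CPM), with lower means of Thy1 and Eln. Of the endothelial markers, Clec4g and Stab2 had higher means at 24 h. The part of these shifts in the Cry1 result was not tested. Against DMSO the 6 h value of -0.28 ± 0.10 did not pass (adjusted p = 0.0887), and without DMSO replicate 1, the lowest of its group, it did (adjusted p = 0.0185). Between 12 h and 6 h it was 0.29 ± 0.10 (adjusted p = 0.106). Cry2 ranged from 27.9 to 33.3 CPM over all libraries and passed in no comparison. Its 12 h libraries, at 32.8, 32.3 and 33.3 CPM, were above all others, with DMSO at 28.8 to 32.0 CPM.

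Dbp, the output gene whose protein binds D-boxes, was at 8.85, 8.26 and 9.54 CPM in DMSO and at 7.11, 8.19 and 7.32 CPM after 24 h. The groups did not overlap, with a log2 fold change of -0.24 ± 0.13 (SE) that did not pass (adjusted p = 0.264). At 12 h it was at 8.71, 9.49 and 10.4 CPM, and the difference between 24 h and 12 h, -0.34 ± 0.13, did not pass (adjusted p = 0.213). Dbp had the fewest counts of the members and the widest intervals, from -0.61 to -0.07 for that difference. It shares 539 of its 2993 exon bases with Sphk2 on the opposite strand, a sphingosine kinase gene at 31.8 to 33.8 CPM in DMSO and 28.8 to 31.3 CPM at 24 h. The Sphk2 groups did not overlap either, and its part in the Dbp values was not tested.

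**Figure D3:**
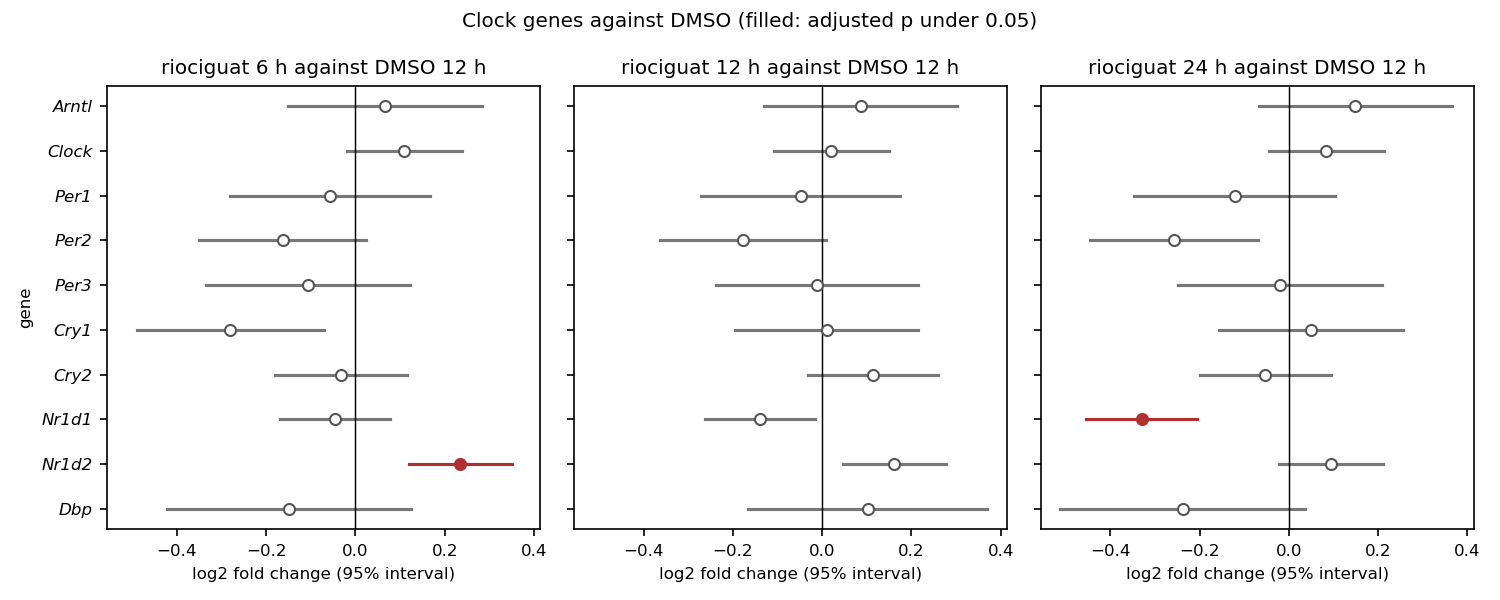
Log2 fold change (x axis) of each clock gene (y axis) against DMSO 12 h after 6, 12 and 24 h of riociguat. Points are fitted values, lines 95% intervals and filled points passed the test (adjusted p under 0.05). Nr1d2 at 6 h (0.24) and Nr1d1 at 24 h (-0.33) are the filled points.

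Read against all genes, the clock genes did not stand out. At 6 h, 1 of 10 members passed, against 9.72% of all tested genes. At 12 h, 0 of 10 passed, against 5.66%, with 2 at an unadjusted p under 0.05 by edgeR and by DESeq2 alike. At 24 h, 1 of 10 passed, against 13.4%. Between exposure times the counts were 0 of 10 for 12 h against 6 h (6.09% of all genes), 0 of 10 for 24 h against 12 h (3.08%) and 2 of 10 for 24 h against 6 h (15.3%). DESeq2 also gave 0 for both counts of 0, where edgeR had 1 and 3 members, and DESeq2 1 and 2, at an unadjusted p under 0.05. The percentages of all genes are for adjusted p, and their share at an unadjusted p under 0.05 was not computed. Libraries of the groups did not overlap for 3, 4 and 3 members at 6, 12 and 24 h against DMSO, where 25.7%, 22.4% and 28.3% of all genes did not overlap. Between exposure times this held for 2 members at 12 h against 6 h (23.9% of all genes), 3 at 24 h against 12 h (19.7%) and 3 at 24 h against 6 h (29.8%). A test for any difference among the 4 groups passed for Nr1d1 (adjusted p = 0.00263) and Nr1d2 (adjusted p = 0.0266), 2 of 10, against 18.3% of all genes. Nr1d2 no longer passed it with replicate 2 or 3 of DMSO or of the 6 h group left out. The median size of the log2 fold change, in either direction, was 0.11, 0.09 and 0.11 over the members at 6, 12 and 24 h, and 0.14, 0.12 and 0.15 over all tested genes. The tested genes were not matched to the members by level.

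The depth allowed small changes to be bounded. At 12 h the 95% intervals of the members spanned at most -0.36 (Per2) to 0.37 (Dbp) on the log2 scale, or 0.777 to 1.29 times the DMSO level. At 24 h they spanned at most -0.51 (Dbp) to 0.37 (Arntl). Changes within these bounds are not excluded by a p that misses the threshold. The 3 comparisons with DMSO share their control libraries.

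A list of 21 other clock genes held ROR receptors, PAR bZIP factors, E-box repressors, casein kinases and F-box proteins. None was called at 6 h against DMSO by edgeR, where 4.48% of all genes were higher and 5.24% lower. At an unadjusted p under 0.05 there were 4, a threshold at which the share of all genes was not computed. At 12 h 0 were higher and 1 lower (2.18% and 3.48% of all genes), and at 24 h 1 and 1 (5.94% and 7.41%). Cipc, which encodes an inhibitor of CLOCK, was at 50.6 to 52.7 CPM in DMSO, 39.0 to 45.7 CPM at 12 h and 39.2 to 44.0 CPM at 24 h. It fell by 0.29 ± 0.07 on the log2 scale at 12 h (SE, adjusted p = 0.011) and by 0.32 ± 0.07 at 24 h (adjusted p = 0.00398). Leaving out DMSO replicate 2 (adjusted p = 0.0573) or 3 (0.0601), or riociguat 12 h replicate 2 (0.0652) or 3 (0.0905), ended the 12 h call of Cipc.

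Bhlhe40, an E-box repressor also named DEC1, went from 95.7 to 103 CPM in DMSO to 103 to 133 CPM at 24 h, a log2 fold change of 0.25 ± 0.07 (SE, adjusted p = 0.0218). Bhlhe40 no longer passed with DMSO replicate 2 left out (adjusted p = 0.101), with riociguat 24 h replicate 1 left out (0.107), or in a fit of the 6 libraries compared (0.0613). Rora, which encodes a ROR receptor, had a mean of 32.7 CPM over all libraries and did not pass. Between 24 h and 6 h, 2 of the 21 genes were higher and 4 lower, where 7.16% and 8.13% of all genes were. Leaving out riociguat 6 h replicate 3 alone ended 4 of these 6 calls, those of Cipc (adjusted p = 0.0657), Csnk1e (0.0728), Noct (0.0529) and Timeless (0.0588). Between 12 h and 6 h 1 was higher and 2 lower (2.57% and 3.52% of all genes), and between 24 h and 12 h 0 and 1 (1.37% and 1.71%).

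A list of 10 targets of CREB and the glucocorticoid receptor, inputs that also act on Per1, was read beside it. At 6 h 1 was higher and 3 were lower (all genes, 4.48% and 5.24%), at 12 h 1 and 1 (2.18% and 3.48%), and at 24 h 1 and 3 (5.94% and 7.41%). Of the 3 lower at 6 h, Sik1, a salt-inducible kinase gene, and Sgk1, a serum- and glucocorticoid-regulated kinase gene, lost their calls without DMSO replicate 3 (adjusted p = 0.0896 and 0.268) and also without replicate 2 or 3 of the 6 h group, which leaves Dusp1, a phosphatase gene. At 24 h Sik1 lost its call whichever of the 6 libraries was left out (adjusted p = 0.0598 to 0.181), with RLE size factors (0.0578) and with DESeq2 (0.0716). Sik1, Sgk1 and Dusp1 are named here after their values were seen. Crem, which encodes a CREB-family factor including the inducible repressor ICER, was at 6.99 to 8.67 CPM in DMSO. It was at 11.4 to 12.1 CPM after 6 h, 11.9 to 13.7 CPM after 12 h and 14.8 ± 1.69 CPM (SD, n = 3) after 24 h, with no overlap with DMSO. Its log2 fold changes were 0.55 ± 0.12, 0.70 ± 0.12 and 0.88 ± 0.12 (SE; edgeR, adjusted p = 0.00629, 0.000855 and 5.45e-05). Nr4a1, an inducible nuclear receptor gene, fell by 0.40 ± 0.11 at 12 h (adjusted p = 0.0478), a call that ended with RLE size factors (adjusted p = 0.0518), in a fit of the 6 libraries compared (0.0697) and with replicate 2 or 3 of DMSO or of the 12 h group left out (0.123 to 0.293). Nr4a1, also among the 3 lower at 24 h, lost that call without DMSO replicate 2 (edgeR, adjusted p = 0.0676) or riociguat 24 h replicate 2 (0.0677). The difference between Crem or Nr4a1 and Per1 was not tested.

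**Figure D4:**
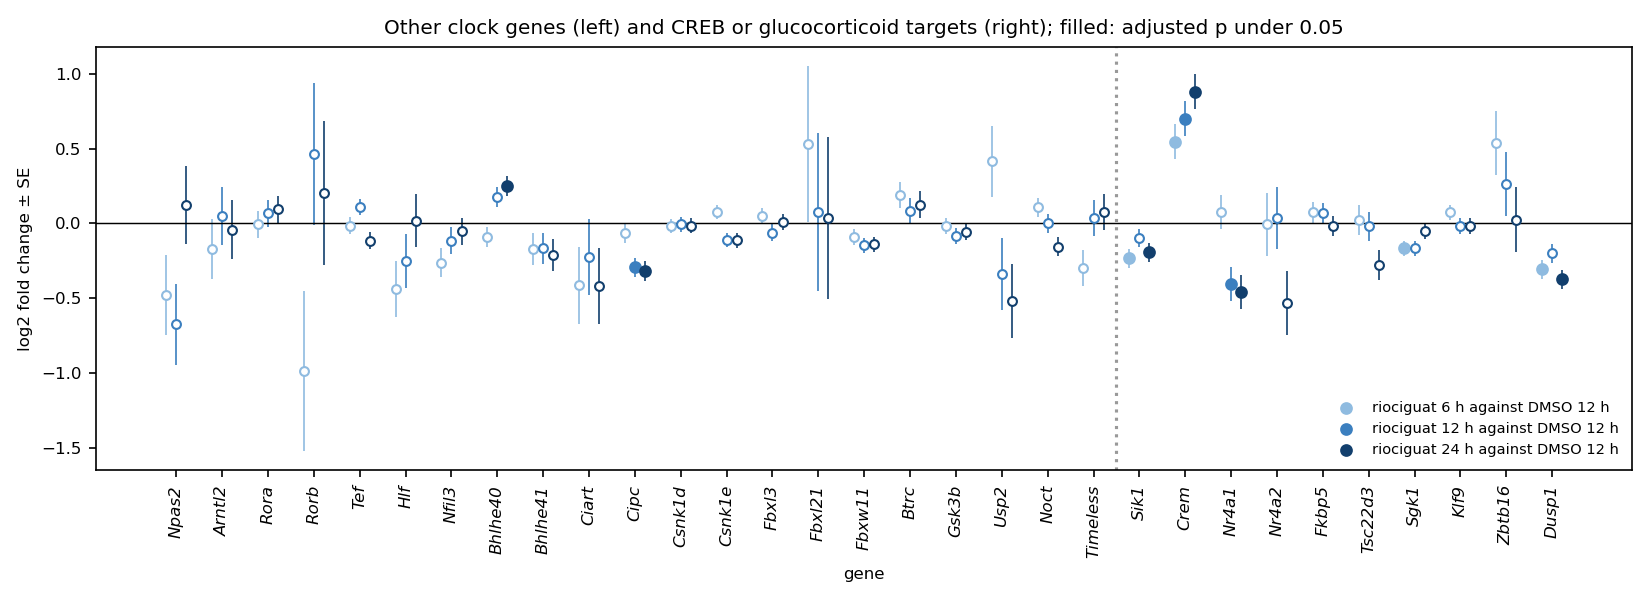
Log2 fold change ± SE (y axis) against DMSO 12 h of 21 other clock genes (left of the dotted line) and 10 CREB or glucocorticoid targets (right) after 6, 12 and 24 h of riociguat. Filled points passed the test (adjusted p under 0.05). Crem lies at 0.55, 0.70 and 0.88, and Cipc is filled at 12 h and 24 h.

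Among 10710 other genes with a mean of at least 5 CPM, the pattern most like Nr1d1 over the 12 libraries was sought by the smallest root-mean-square difference of centred log2 CPM. The 5 nearest were Cdc42ep1 (0.034), Cavin1 (0.042), Sesn2 (0.048), Sidt2 (0.052) and Cdkn1a (0.053). Their log2 fold changes at 24 h against DMSO lay between -0.38 (Sidt2) and -0.29 (Sesn2), around the -0.33 of Nr1d1. For Arntl the nearest included Hacd3 (0.079), Uhrf1bp1 (0.081), Rsf1 (0.082) and Det1 (0.087), which is wider. These distances are set against SDs of 0.15 for Nr1d1 and 0.14 for Arntl in log2 CPM over the 12 libraries, and the genes were chosen by this likeness, so they carry no test.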

How the data were processed

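RNA sequencing libraries of 12 samples in 4 groups were analysed. The deposited values are expected counts per gene, estimated by the authors and all stored whole. GRCm38 and the tools Salmon, fastp, FastQC and DESeq2 are named, per the submitters' processing notes, without roles, versions or an annotation release. Salmon shares reads between similar transcripts, so overlapping genes are uncertain.

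Counts were tested with edgeR 4.0.16 (R 4.3.3) in a single model of the 12 libraries by group, after filterByExpr and TMM scaling, with the quasi-likelihood functions glmQLFit and glmQLFTest (two-sided). The SE of a log2 fold change came from the F statistic, and 95% intervals from the moderated degrees of freedom (8 residual and 8.80 prior). Benjamini-Hochberg adjustment covered all 16036 genes of each comparison, with a threshold of 0.05. Symbols, positions and union exon lengths came from GENCODE vM21. The same steps were tested on simulated data. Within groups, library pairs had a chi-square per degree of freedom of at least 4.08, so none was a duplicate. The highest values were 12.3 and 16.0, for DMSO replicate 1 against replicates 2 and 3, which were at 4.08 with each other. Without DMSO replicate 1, the genes called against DMSO rose from 1559 to 1852 at 6 h, 907 to 1262 at 12 h and 2141 to 2566 at 24 h.

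Alternatives were RLE size factors, DESeq2 1.42.0, no low-count filter, a replicate block, only the 6 libraries compared, and leaving out each library. Named genes were all members, other clock genes called against DMSO, listed CREB or glucocorticoid targets called at 12 h, and the 5 nearest to Nr1d1 and to Arntl. Crem at 6 h and 24 h, and the 24 h call of Nr4a1, are given beside their 12 h values. Members and lists were chosen with earlier results of these data known. Of the hepatocyte markers, 1, given as Tf, matched no row. Some genes that these rules name are not reported here and are left out of the counts and plot of other clock genes.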

Additional observations from a re-analysis of the deposited data

Results flagged for a closer look

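Several genes differed between exposure times of riociguat by a test of the difference itself, to which the DMSO libraries add only to the estimate of spread. No DMSO group was exposed for 6 h or 24 h, so compound and the stage at which it was added cannot be told apart here. Between 24 h and 6 h, log2 fold changes of clock members were -0.28 for Nr1d1 and 0.33 for Cry1. In the same comparison other clock genes had log2 fold changes of 0.34 (Bhlhe40), -0.25 (Cipc), -0.19 (Csnk1e, a casein kinase gene), -0.93 (Usp2, a deubiquitinase gene), -0.27 (Noct, a rhythmic nocturnin gene) and 0.37 (Timeless), and Nr4a1 had -0.53. Usp2 was low, at 32 to 37 counts per library at 24 h and 52 to 90 at 6 h. Timeless also serves DNA replication, and its adjusted p of 0.0493 (edgeR) rose to between 0.0588 and 0.159 when any 1 of the 6 libraries was left out. Between 24 h and 6 h, single left-out libraries also ended the calls of Cry1 (4 of 6), Csnk1e (3 of 6), Cipc and Usp2 (2 of 6 each) and Noct (1 of 6). Between 12 h and 6 h, log2 fold changes were 0.27 for Bhlhe40, -0.23 for Cipc, -0.19 for Csnk1e and -0.48 for Nr4a1. Leaving out 1 library ended the call in 4 of 6 fits for Bhlhe40, 5 of 6 for Cipc, 5 of 6 for Csnk1e and 3 of 6 for Nr4a1. The Cipc call also ended with no low-count filter (adjusted p = 0.0589) and in a fit of the 6 libraries compared (0.0672), as did that of Csnk1e in the latter fit (0.0508). Between 24 h and 12 h, Tef, a relative of Dbp, had a log2 fold change of -0.23. Its call ended in a fit of the 6 libraries compared (adjusted p = 0.0518) and in 4 of 6 fits with 1 library left out (0.0907 to 0.203).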

How the results depend on the processing

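Nr1d1 at 24 h against DMSO and against 6 h passed under every alternative run. Of the same-numbered replicate pairs, 0 of 18 had a correlation of deviations over 0.1. Pairs with different numbers were not computed for reference, so pairing by the replicate numbers is not excluded. With them as a block, the members called for any difference among groups went from 2 to 1, and calls ended for Nr4a1 at 12 h against DMSO (adjusted p = 0.0601), Sik1 at 24 h against DMSO (0.0716), Cipc between 12 h and 6 h (0.0849), Tef between 24 h and 12 h (0.0663) and Timeless between 24 h and 6 h (0.0608). In fits of the 6 libraries compared, 1 member passed between 12 h and 6 h instead of 0 (Cry1, adjusted p = 0.0473). Without a low-count filter 838 genes in place of 494 passed between 24 h and 12 h, and Per3 at 12 h against DMSO, uncalled, turned from -0.01 to 0.0021. Leaving out single libraries, members called ranged from 0 to 2 at 6 h, stayed at 0 at 12 h and 1 at 24 h against DMSO, and ranged from 1 to 2 between 24 h and 6 h and from 1 to 3 for any difference. All genes called then ranged from 955 to 1852 at 6 h, 510 to 1262 at 12 h and 1395 to 2566 at 24 h against DMSO, from 596 to 836 between 12 h and 6 h, from 318 to 432 between 24 h and 12 h, from 1772 to 2117 between 24 h and 6 h and from 2283 to 3443 for any difference. Small uncalled log2 fold changes turned sign when a library was left out, and the cause was not tested. Against DMSO the ranges at 6 h were -0.021 to 0.16 (Arntl), -0.069 to 0.0085 (Cry2) and -0.084 to 0.022 (Nr1d1). At 12 h they were -0.00073 to 0.18 (Arntl), -0.016 to 0.074 (Clock), -0.11 to 0.055 (Per1), -0.081 to 0.078 (Per3) and -0.083 to 0.11 (Cry1), and at 24 h -0.087 to 0.036 (Per3) and -0.043 to 0.15 (Cry1). Between 12 h and 6 h they were -0.067 to 0.085 (Arntl), -0.053 to 0.11 (Per1) and -0.067 to 0.022 (Per2), between 24 h and 12 h -0.18 to 0.016 (Per1) and -0.088 to 0.042 (Per3), and between 24 h and 6 h -0.060 to 0.030 (Clock), -0.16 to 0.031 (Per1) and -0.055 to 0.021 (Cry2).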
